A study of Homo sapiens with 12 samples.

Results

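Box C/D small nucleolar RNAs were followed in MDA-MB-231 cells, a triple-negative human breast cancer line, on one-colour Affymetrix arrays. They were taken as the genes whose symbol begins with SNORD and a number, from features that the platform annotation pairs with a single gene. This gave 115 of the 18417 genes measured. Where a gene had several features the one with the highest mean was to be kept, but 0 of the 115 had more than 1 feature, so no measured value decided membership. Of the 115, 46 were copies from the tandem clusters SNORD113 to SNORD116, and the other 69 lay outside them.

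Box C/D RNAs are short nuclear RNAs that pair with ribosomal RNA and direct its 2'-O-methylation by the enzyme FBL, which they bind together with NOP56, NOP58 and SNU13. A few, such as U3, U8, U14 and SNORD13, act instead or also in cutting or acetylating ribosomal RNA. Most are cut out of introns of host genes, many of which encode ribosomal proteins, translation factors or noncoding RNAs such as GAS5 and the SNHG genes, while SNORD13 has a promoter of its own. SNORD113 to SNORD116 are imprinted repeats best known from brain.

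The 12 arrays formed 4 groups of 3: parental cells without treatment, parental cells given TRAIL at 100 ng per ml for 2 h, cells treated to resistance (TTR) without treatment, and TTR cells given the same TRAIL dose and time. TRAIL is a death ligand that starts apoptosis through its receptors, and TTR cells were selected by treatment until resistant, so the design asks how parental and resistant cells differ before and after TRAIL. How the selection was done is not given by the labels, and TTR was 1 derivative of 1 cell line. The labels do not say whether replicates were separate cultures, so p-values measure the spread between these arrays, which may be technical. Array labels also carry an unexplained tag that reads minus for parental and plus for TTR cells, and its part cannot be told apart from the line.

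The parental TRAIL arrays stood apart from the rest. Their correlations with arrays of other groups over all features lay between 0.921 and 0.963, and their median over all features was 4.58 to 4.61 against 4.24 to 4.40 elsewhere, on the deposited log2 scale. Centring each array on its median removes that gap and moved the median TRAIL change of all genes in parental cells from 0.05 to -0.24, so counts that turn on it are given both ways. The 5 markers of mesenchymal breast cancer cells read 10.95 to 11.55 as means over the arrays, while 6 luminal markers read 2.51 to 8.06, 4 blood markers 2.27 to 3.81 and 5 markers of fibroblasts and endothelium 2.29 to 5.45. With TRAIL in parental cells 4 of the 5 mesenchymal markers fell and 1 rose by limma (median -0.77), and the median level over the 5 was 11.23 to 11.51 on untreated parental arrays and 10.50 to 10.63 with TRAIL. Among 6101 genes other than box C/D RNAs with levels of 6.39 to 13.20 in untreated TTR cells, 67.6% fell and 13.5% rose. Their median change with TRAIL in parental cells was -0.68. The falls are thus not shown to be particular to the mesenchymal markers. Of the luminal markers 2 of 6 rose and 0 fell, and 1 rose and 1 fell among both the blood and the fibroblast and endothelium markers. In TTR cells 0 markers of these lists passed. Their part in the results was not tested. Values are scaled within each array, so less of an RNA per cell and fewer cells holding it cannot be told apart. A feature also cannot tell a finished small nucleolar RNA from precursor or intron RNA with the same letters.

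The RefSeq gene table of GRCh38.p14 placed 113 of the 115 RNAs inside the span of another gene, called the host here, on the basis of position without strand. The table gave no span host for SNORD13 and SNORD32B. Outside the tandem clusters the 67 hosted RNAs lay in 41 hosts, 31 of them protein-coding and holding 48 of the RNAs, and 10 noncoding and holding 19. Members that share a host may come from a shared transcript and are not taken as independent of each other.

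Because many such hosts begin their transcripts with a run of C and T, a start known from genes of the translation machinery, the windows around the start sites of hosts of the RNAs with the largest TRAIL rises are shown. Each holds 36 bases before and 24 bases from the RefSeq start site, 5′ to 3′ on the strand of the gene, in build GRCh38.p14. Capitals mark the letters CTTT where they lie within the first 6 bases from the start. No window is shown for RPS20, the host of SNORD54.
SNHG5, host of SNORD50A and SNORD50B, chr6:85678710-85678769, minus strand: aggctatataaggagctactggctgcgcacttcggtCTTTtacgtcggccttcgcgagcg
ZFAS1, host of SNORD12C, chr20:49278606-49278665, plus strand: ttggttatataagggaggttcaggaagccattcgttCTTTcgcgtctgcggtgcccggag
SNHG19, host of SNORD60, chr16:2155335-2155394, minus strand: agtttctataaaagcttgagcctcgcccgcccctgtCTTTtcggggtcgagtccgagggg
EEF1B2, host of SNORD51, downstream start, chr2:206159859-206159918, plus strand: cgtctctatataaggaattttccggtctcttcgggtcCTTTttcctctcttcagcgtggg
EEF1B2, upstream start, chr2:206159573-206159632, plus strand: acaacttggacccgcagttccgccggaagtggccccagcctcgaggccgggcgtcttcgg
RPL3, host of SNORD43, chr22:39319600-39319659, minus strand: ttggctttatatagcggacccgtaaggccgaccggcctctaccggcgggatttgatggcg
RBMX, host of SNORD61, chrX:136880702-136880761, minus strand: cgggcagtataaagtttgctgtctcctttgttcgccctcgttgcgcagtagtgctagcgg
GAS5, host of SNORD75, SNORD77 and SNORD79, chr1:173869022-173869081, minus strand: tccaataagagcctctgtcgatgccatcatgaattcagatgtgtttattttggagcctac
HSPA8, host of SNORD14E, chr11:123062113-123062172, minus strand: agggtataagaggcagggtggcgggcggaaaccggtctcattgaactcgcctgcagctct
The letters CTTT, searched on the strand of the gene alone, lay within the first 6 bases of at least 1 start in 11 of the 34 hosts with an entry (32.4%) and in 918 of 27305 genes with an entry (3.36%). This motif was chosen after the host list was known. A match is a description of the letters at the annotated start. Its absence, as at GAS5 and RPL3, says only that these letters are not within the first 6 bases from that start.

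TRAIL was followed in parental cells by higher levels of most box C/D RNAs outside the tandem clusters. Of these 69, 64 rose and 0 fell by limma's moderated test with Benjamini-Hochberg adjustment over all genes, called at an adjusted p under 0.05. Their median change was 1.49 on the log2 scale, from -0.20 to 4.15. Among all 115 RNAs 66 rose, 1 fell and 48 did not pass, with a median of 0.75, where 28.9% of all genes rose, 29.9% fell and the median was 0.05. At least a 2-fold rise was called for 50 of the 115 and for 4.21% of all genes. The 3 TRAIL arrays all lay above the 3 untreated arrays for 67 of the 115, against 31.2% of all genes.

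With each array centred on its median, 59 of the 69 RNAs outside the clusters still passed as higher and 1 as lower. Their median was 1.20. Of all 18417 genes 2328 were then higher and 8608 lower. Over all 115 the centred split was 59 higher and 23 lower, of which 22 were tandem copies whose levels are near the bottom of the scale. Quantile normalization gave 63 higher and 1 lower of the 69, and 3524 higher and 5783 lower of all 18417 genes. The 12 largest rises, from 2.90 to 4.15, were larger than the shift that centring makes.

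**Figure D1:**
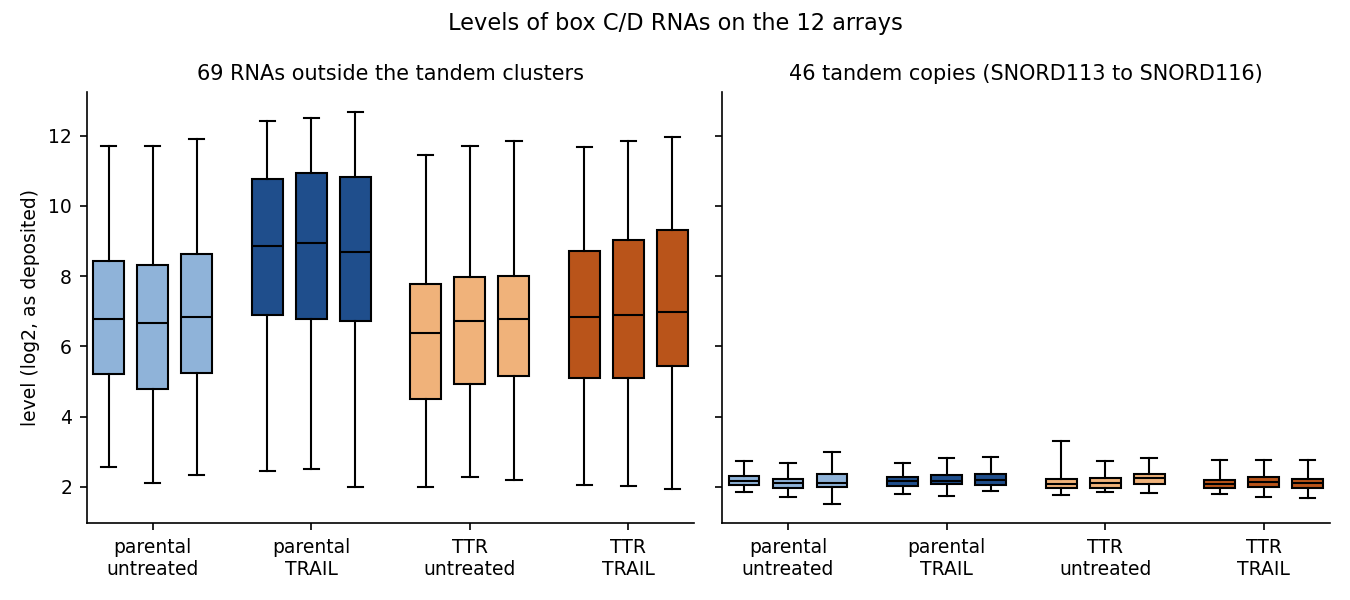
Levels of the 69 box C/D RNAs outside the tandem clusters (left) and of the 46 tandem copies (right) on each of the 12 arrays, in log2 units as deposited; boxes span the quartiles, the line is the median and whiskers reach the lowest and highest RNA. The medians on the left were 8.70 to 8.94 on the 3 parental TRAIL arrays and 6.37 to 6.97 on the other 9, while those on the right stayed between 2.08 and 2.24.

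The largest rise was that of SNORD50B, which guides methylation of the large-subunit ribosomal RNA and lies in SNHG5. SNORD50B read 6.34, 5.77 and 6.20 on untreated parental arrays and 10.03, 10.26 and 10.47 with TRAIL. All TRAIL arrays were higher, without overlap, with a change of 4.15 ± 0.17 (SE, n = 3 arrays against 3), or 17.7-fold (limma adjusted p = 9.87e-12). Its partner in the same host, SNORD50A, went from 8.16, 8.17 and 8.13 to 10.93, 11.14 and 11.10. That is a 7.49-fold rise, also without overlap, so the members of SNHG5 rose together but not by the same amount. Over all genes SNORD50B ranked 29 by the size of its rise, and 9 of the 100 largest rises were box C/D RNAs.

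SNORD61, a guide for the small-subunit ribosomal RNA inside the splicing regulator gene RBMX, stood at 4.51, 4.24 and 4.39 untreated and at 8.30, 8.66 and 8.25 with TRAIL. It was higher in every TRAIL array, a 16.3-fold rise (4.03 ± 0.14, limma adjusted p = 1.58e-12). SNORD54, from the ribosomal protein gene RPS20, read 5.52, 5.26 and 5.37 untreated against 9.09, 9.04 and 9.08 with TRAIL. Its 12.9-fold rise (3.69 ± 0.11) had the smallest SE of the RNAs named so far (limma adjusted p = 2.49e-13).

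GAS5 is a noncoding gene whose introns hold a run of box C/D RNAs, and 7 were measured. All 7 rose in parental cells, by 1.89 to 3.95. SNORD75, a large-subunit guide, led them with 7.88, 7.51 and 7.97 untreated and 11.62, 11.76 and 11.84 with TRAIL, a 15.5-fold rise. SNORD77 was the lowest of the 7 in level and read 3.94, 3.97 and 4.35 against 7.41, 7.76 and 8.16, which is 12.9-fold. SNORD79, also a large-subunit guide, moved from 6.97, 6.72 and 7.02 to 9.60, 9.81 and 10.01, or 7.47-fold. SNORD74 was the highest of the 7 in level, with 10.54, 10.67 and 10.70 untreated against 12.41, 12.50 and 12.68, and it changed least (3.72-fold). So the GAS5 RNAs did not overlap between groups in any of these 4 cases, while their folds differed from each other.

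SNORD12C lies in ZFAS1, another noncoding host, and read 8.07, 7.74 and 8.23 untreated against 11.58, 11.70 and 11.73 with TRAIL, a 12.7-fold rise. SNORD60, a large-subunit guide in SNHG19, read 6.31, 5.77 and 6.29 against 9.03, 9.08 and 9.02, or 7.58-fold. In both cases every TRAIL array was above every untreated one. SNORD28, a small-subunit guide, and SNORD30, a large-subunit guide, share the host SNHG1 and rose 5.75-fold and 6.10-fold.

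Among RNAs from protein-coding hosts, SNORD51, a large-subunit guide in the translation factor gene EEF1B2, read 5.35, 5.28 and 5.45 untreated and 8.62, 8.94 and 8.66 with TRAIL, a 10.4-fold rise. SNORD43, a small-subunit guide in the ribosomal protein gene RPL3, read 7.60, 7.73 and 7.77 against 10.95, 11.18 and 10.95, a rise of 3.32 ± 0.13. SNORD14E and SNORD14C are copies of U14, which is needed to process the small-subunit RNA, and lie in the chaperone gene HSPA8. SNORD14E read 7.28, 6.72 and 7.17 against 9.97, 10.22 and 10.04 (8.11-fold), and SNORD14C rose 4.48-fold. The groups did not overlap for any of the 3 RNAs shown by array here.

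**Figure D2:**
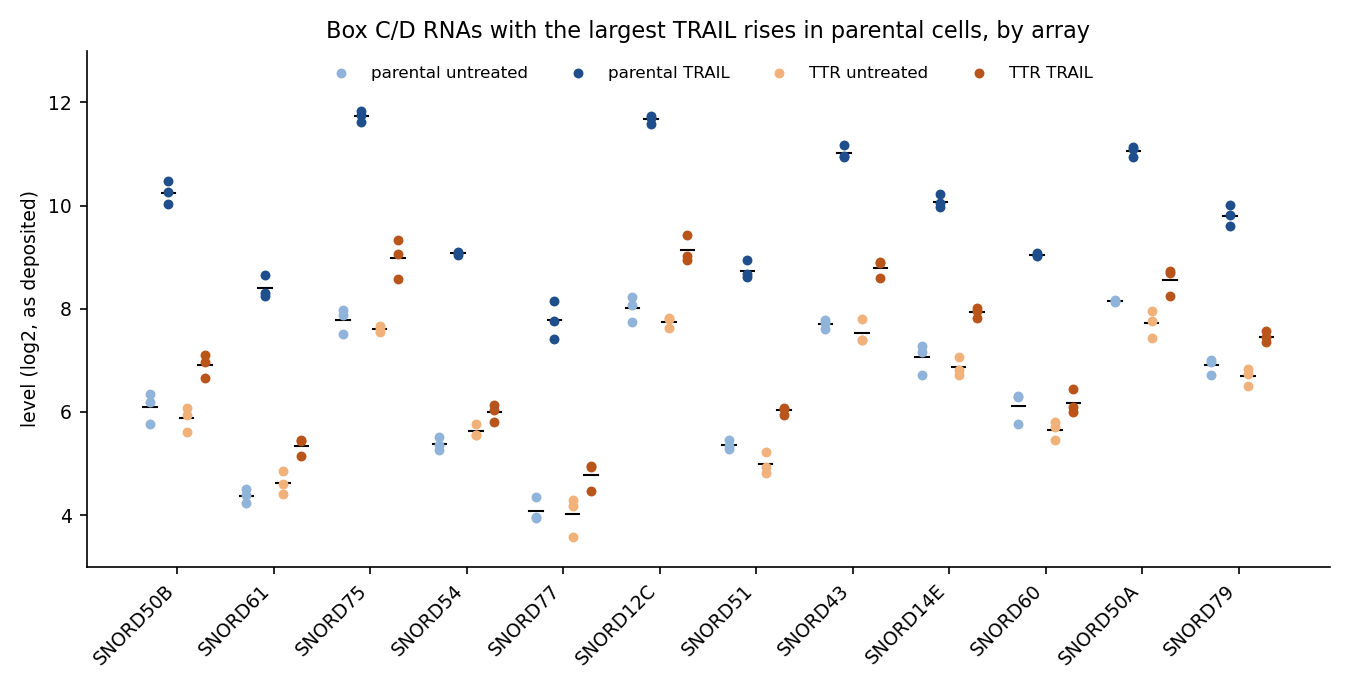
Deposited log2 level on every array for the 12 box C/D RNAs with the largest TRAIL rises in parental cells, with 3 points per group and a bar at each mean. The dark blue parental TRAIL points lie above all other points of the same RNA in each of the 12, and the dark orange TTR TRAIL points lie between them and the untreated points or next to the latter.

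By host, the 19 RNAs in noncoding hosts had a median change of 2.61 and 18 of them rose, the exception being SNORD7 in SNHG30 at -0.20 (adjusted p = 0.145). The 48 RNAs in protein-coding hosts had a median of 1.31 and 44 rose. The difference between these classes was not tested. Within ribosomal protein genes, the 4 RNAs of RPL13A rose by 0.76 to 1.67, the 3 of RPL23A by 1.27 to 1.72 and the 3 of RPL3 by 1.64 to 3.32. So each of these 3 hosts held RNAs that all passed, with the widest spread inside RPL3.

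Of the 5 RNAs with the highest mean level over the 12 arrays, SNORD74 is given above and the other 4 rose by 0.49 to 0.83. SNORD13, which directs acetylation of the small-subunit ribosomal RNA and has its own promoter, was the highest of the 115 with a mean of 11.88 over the 12 arrays. SNORD13 read 11.69, 11.71 and 11.90 untreated and 12.21, 12.29 and 12.27 with TRAIL, a 1.40-fold rise (0.49 ± 0.11, limma adjusted p = 0.00139). With centred arrays the change was 0.20 and no longer passed (limma adjusted p = 0.149). SNORD13P3, a near copy inside KIF9, moved 1.46-fold and likewise missed the threshold with centred arrays (limma adjusted p = 0.0503), and signals of near copies are uncertain.

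SNORD33, a small-subunit guide in RPL13A, read 11.29, 11.27 and 11.47 against 12.07, 12.18 and 12.06, a 1.69-fold rise without overlap. SNORD57, a small-subunit guide in NOP56, read 10.77, 10.73 and 10.83 against 11.39, 11.86 and 11.56, or 1.78-fold. Each of these RNAs was near the upper end of the scale before TRAIL. Whether signals near the top of an array's range understate a change was not tested.

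Box C/D RNAs were also set beside other genes of like level. All genes were split into 3 classes of equal size by their mean over the 3 untreated TTR arrays, which the TRAIL change in parental cells does not use, a split chosen after seeing the data. In the highest class all 38 box C/D RNAs rose in parental cells, with a median of 1.54. Of the 6101 other genes in that class 13.5% rose and 67.6% fell, with a median of -0.68. In the middle class 22 of 24 box C/D RNAs rose and 0 fell, against 47.9% and 20.2% of 6115 other genes. The lowest class held 53, of which 6 rose and 1 fell, against 24.6% and 2.35% of 6086 other genes. Across the 69 RNAs outside the clusters, the level in untreated TTR cells and the TRAIL change in parental cells, which use no common array, had Pearson's r = 0.05 and Spearman's rho = 0.07. These points share a platform and in part a host.

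The tandem copies were the exception to the pattern. All 46 had mean levels of 1.84 to 2.73, near the lowest of any gene, and no detection call was used, so these values can be background. Their median change with TRAIL in parental cells was 0.04. SNORD116-24 (0.32, limma adjusted p = 0.0283) and SNORD115-27 (0.28, limma adjusted p = 0.0233) rose, neither remaining higher among centred calls, and SNORD115-48 fell. SNORD115-48 read 2.25, 2.30 and 2.42 untreated and 1.96, 2.00 and 2.06 with TRAIL, lower without overlap (limma adjusted p = 0.00639). Outside the clusters 5 RNAs did not pass: SNORD7, SNORD13P1 at -0.02, SNORD63 at 0.17, SNORD96B at 0.20 and SNORD102 at 0.12. Their adjusted p-values by limma ran from 0.145 to 0.919, and their mean levels over the 12 arrays were 4.66 or lower.

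The measured hosts did not move with their RNAs as a group. A measured host was available for 35 RNAs, through 25 host genes, 23 of them protein-coding and 2 noncoding. A host counts as measured here only where a feature names it alone. Hosts of many of the largest rises, namely SNHG5, GAS5, SNHG1, SNHG19 and RBMX, had no such feature. Whether features left out for naming several genes read these hosts was not examined. Of the 25 hosts 6 rose (24%) and 9 fell (36%) with TRAIL in parental cells, with a median of -0.01 (4 and 12 with centred arrays). Both noncoding hosts rose. Among all genes 28.9% rose and 29.9% fell (2328 and 8608 of 18417 genes with centred arrays). The mean levels of the hosts over the 12 arrays ran from 2.70 to 12.76, with a median of 9.02. In the highest class of untreated TTR level 13.5% of genes other than box C/D RNAs rose and 67.6% fell, with a median of -0.68. For 33 of the 35 RNAs the change was above that of the host, the exceptions being SNORD41 in TNPO2 and SNORD13P1 in PHETA2. In 13 the RNA rose while the host fell, in 7 both rose and in 12 the RNA rose while the host did not pass.

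RPL3 averaged 11.98 ± 0.02 untreated and 11.67 ± 0.08 with TRAIL (SD, n = 3 each), a change of -0.31 ± 0.09 (limma adjusted p = 0.00667), while SNORD43 rose by 3.32. ATP5F1B, a subunit of the mitochondrial ATP synthase, fell by 1.52 while SNORD59A and SNORD59B inside it rose by 1.91 and 1.17. RPL5 fell by 1.35 and its SNORD21 rose by 0.86. These hosts and RNAs thus moved in opposite directions by the test.

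ZFAS1 rose by 1.37 ± 0.10, reading 8.14, 8.06 and 8.14 untreated and 9.44, 9.57 and 9.43 with TRAIL, so host and RNA both rose, the RNA by more. SNHG29, the other measured noncoding host, rose 1.57-fold and its SNORD49A 2.84-fold. RPS20 rose by 0.32 (limma adjusted p = 0.00669), which centring reduced to 0.03, against 3.69 for SNORD54. EEF1B2 at 0.23 (limma adjusted p = 0.126) and KIF9 at -0.01 did not pass. HSPA8 and RPS3 fell by 0.24 each (limma adjusted p = 0.0203 and 0.0277), but neither call held in every alternative. Fitting the compared groups alone gave limma adjusted p = 0.0646 for HSPA8 and 0.0677 for RPS3, and adding the replicate block to that fit gave 0.0829 and 0.0899. Without the parental TRAIL replicate 2 the limma adjusted p was 0.052 and 0.0661, and without the untreated parental replicate 3 it was 0.0756 and 0.0716. RPS3 also missed the threshold without the untreated parental replicate 2 (limma adjusted p = 0.06) and the parental TRAIL replicate 3 (0.07). Over the 35 pairs the changes of RNA and host had r = 0.22 and rho = 0.17, a description in which several RNAs share a host and all values share the same arrays.

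**Figure D3:**
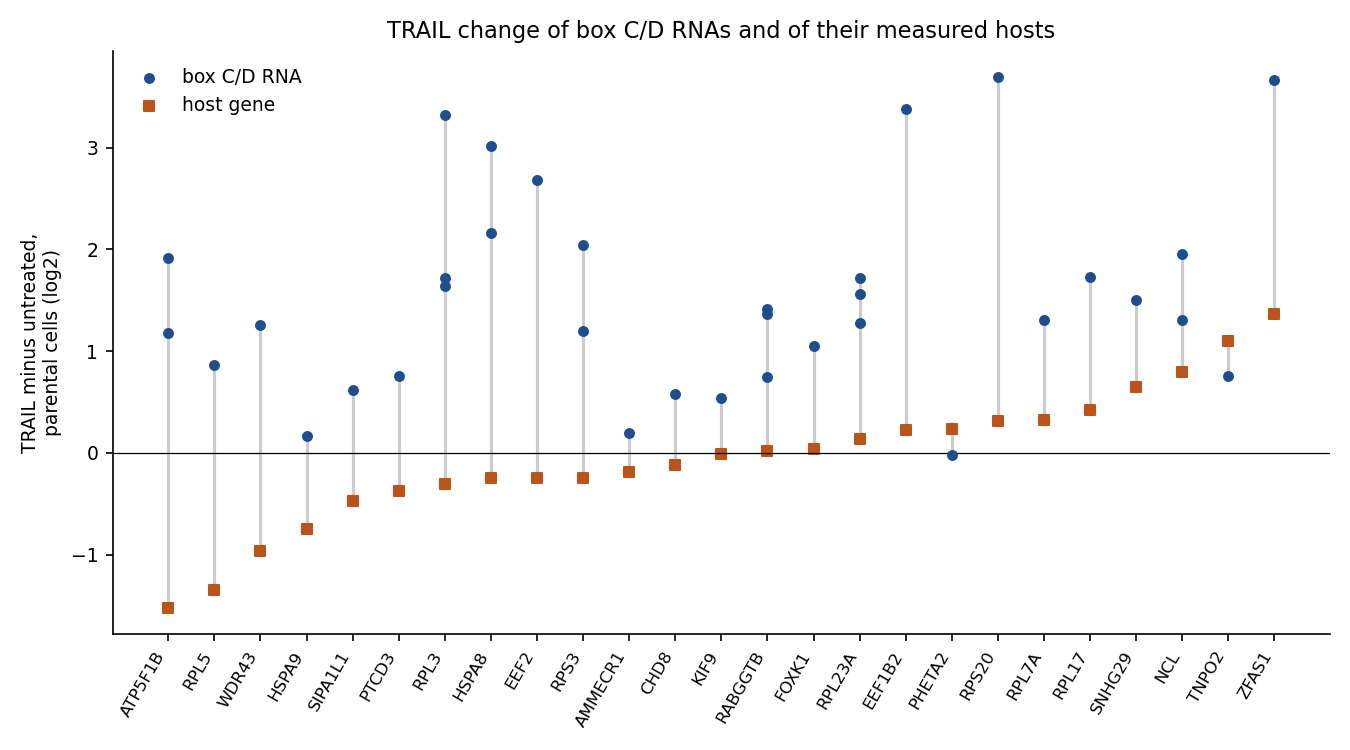
TRAIL minus untreated difference in parental cells (log2) for the 25 measured hosts (squares) and the 35 box C/D RNAs inside them (circles), hosts ordered by their own change. Circles lie above the square of their host for 33 of the 35 RNAs, also where the host lies below 0.

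Genes of the protein machinery were read beside the RNAs. Of 11 measured genes for box C/D core and assembly proteins 0 rose and 9 fell, with a median of -0.49. RUVBL1, a helicase of the assembly complex, fell by 1.04, ZNHIT6, an assembly factor, by 0.98 and RPAP3, which links assembly to the chaperone HSP90, by 0.65, and the methyltransferase gene FBL fell by 0.63. NOP58 at 0.14 (limma adjusted p = 0.261) did not pass. Of 17 genes of the small-subunit processome, the particle built around U3, 2 rose and 11 fell (median -0.96), among them UTP4, which fell by 1.93, WDR75 by 1.72 and WDR36 by 1.67. Of 19 measured genes of intron debranching and end trimming 1 rose and 14 fell (median -0.55). Those included exosome subunits EXOSC1 and EXOSC8, which fell by 1.79 and 1.58, and the 5′ exonuclease XRN2, which fell by 1.40, while the debranching enzyme DBR1 stood at 0.05. Quantile normalization gave 6, 11 and 12 falls and 1, 2 and 1 rises in the 3 lists, where 5783 of all 18417 genes fell and 3524 rose. On the deposited scale falls were also called for 67.6% of other genes in the highest class of untreated TTR level.

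Other small guide RNAs in the nucleus changed in the same direction. Of 61 box H/ACA RNAs, which guide pseudouridylation, 54 rose and 0 fell in parental cells with a median of 1.04 (43 and 1 with centred arrays). Of 16 Cajal body RNAs, which guide modification of spliceosomal RNA, 13 rose and 0 fell with a median of 1.31 (13 and 0 with centred arrays). Rises of box C/D RNAs are thus not shown to be particular to that class.

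In TTR cells the same TRAIL treatment was followed by fewer and smaller rises. Of the 115 box C/D RNAs 24 rose and 0 fell, where 3.27% of all genes rose and 2.55% fell. The median change was 0.13 over the 115 and 0.30 over the 69 outside the tandem clusters, against -0.01 over all genes. At least a 2-fold rise was called for 10, against 0.673% of all genes. TTR TRAIL arrays all lay above the untreated ones for 35 of the 115 and for 11.2% of genes. Centred arrays gave 23 higher and 0 lower, all 23 among the 24. Of all 18417 genes 448 were then higher and 1943 lower. Centring left 3 rises of at least 2-fold in place of 10, and a median of 0.19 over the 69.

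SNORD75 rose most along with SNORD12C. SNORD75 read 7.60, 7.54 and 7.67 in untreated TTR cells and 8.58, 9.06 and 9.32 with TRAIL, or 2.61-fold, and SNORD12C 7.63, 7.82 and 7.80 against 8.94, 9.02 and 9.43, also 2.61-fold (limma adjusted p = 8.76e-06). SNORD43 read 7.39, 7.39 and 7.81 against 8.60, 8.90 and 8.89, a 2.41-fold rise. Groups did not overlap for these 3 RNAs. The smallest p-value belonged to SNORD28, with 9.21, 9.13 and 9.08 against 10.16, 10.25 and 10.20 (1.06 ± 0.10, limma adjusted p = 2.47e-06). SNORD30, SNORD78 and SNORD14C rose 2.08-fold, 2.03-fold and 2.01-fold.

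All 7 RNAs of GAS5 rose in TTR cells, by 0.70 to 1.38, as did both of SNHG1, both of SNHG5 and both of HSPA8. In contrast 0 of the 4 RNAs of RPL13A passed, at 0.21 to 0.36. By host class 14 of 19 RNAs in noncoding hosts rose (median 0.78) and 10 of 48 in coding hosts (median 0.25). Of all genes, 563 of the 602 that rose in TTR cells also rose in parental cells, and 4754 more rose in parental cells alone. For box C/D RNAs, all 24 that rose in TTR cells also rose in parental cells, and 42 more passed in parental cells alone by the threshold. SNORD54, with 5.56, 5.76 and 5.55 against 5.81, 6.04 and 6.13, was one of these 42 (0.37, limma adjusted p = 0.0537), although its TRAIL arrays lay above its untreated ones.

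The 2 responses were then compared by limma, taking the parental change away from the TTR change. This difference passed the test below 0 for 59 of the 115 RNAs and above 0 for 0, where 14.3% of all genes passed below and 22.9% above. All 59 were among those that rose in parental cells, a change that this difference takes away. Of all genes that passed below 0, 2588 of 2628 had likewise risen in parental cells. Outside the tandem clusters 58 of 69 passed with a median difference of -1.19, and 66 of 69 had the larger change in parental cells. The smallest p-values were those of SNORD54 (-3.32 ± 0.15, limma adjusted p = 5.08e-09), SNORD61 (-3.30 ± 0.19) and SNORD51 (-2.34 ± 0.17), followed by SNORD50B (-3.11 ± 0.23) and SNORD79 (-2.14 ± 0.18). SNORD61 in TTR cells read 4.40, 4.61 and 4.85 untreated and 5.15, 5.43 and 5.45 with TRAIL, higher without overlap but below every parental TRAIL array. With centred arrays 53 of the 69 passed below 0 and 0 above, where 1275 of all 18417 genes passed below and 5410 above.

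Among the 64 RNAs that rose in parental cells outside the clusters, the TTR change was a median 21% of the parental change. It ranged from -18.1% for SNORD8 in CHD8, whose TTR change lay below 0, to 121% for SNORD56B, a low RNA inside SIPA1L1. SNORD56B read 2.56, 2.27 and 2.55 against 2.92, 3.53 and 2.77 in parental cells and 2.57, 2.44 and 2.51 against 2.81, 3.36 and 3.60 in TTR cells, and its difference did not pass (limma adjusted p = 0.746). SNORD13P2, inside FOXK1, changed by 1.05 and 0.83, also without a passing difference (limma adjusted p = 0.572). SNORD13 had a difference of -0.34 (limma adjusted p = 0.110). Both SNORD56B and SNORD13P2 were chosen after their values were seen. Across the 69 RNAs, parental and TTR changes, which come from separate arrays, had r = 0.78 and rho = 0.75, so RNAs with large rises in parental cells tended to have the larger rises in TTR cells. These points share the platform and in part a host.

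**Figure D4:**
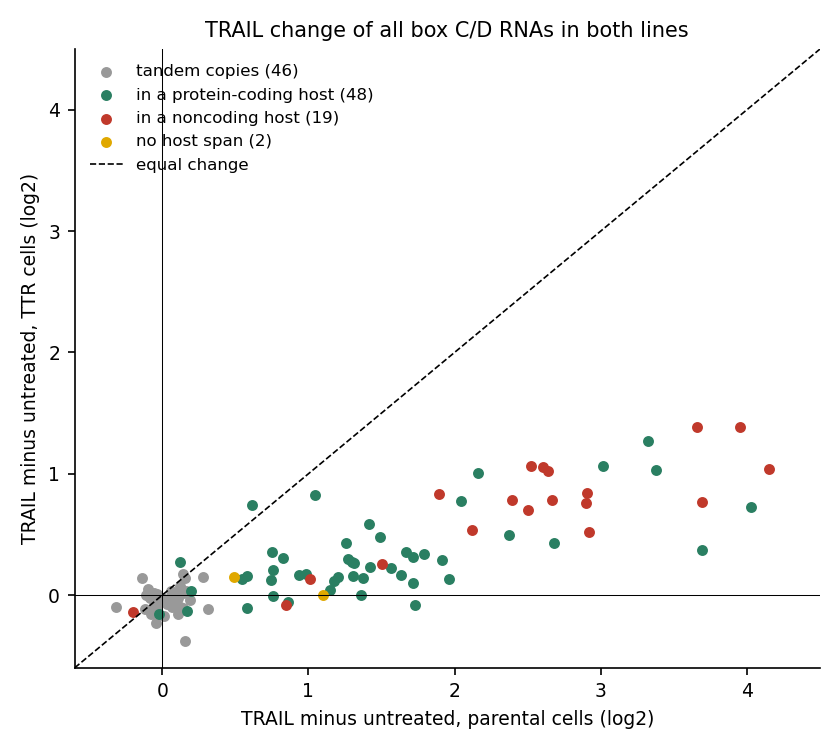
TRAIL minus untreated difference (log2) in parental cells (horizontal) and TTR cells (vertical) for all 115 box C/D RNAs, coloured by tandem cluster, host class or no host span, with the dashed line at equal change. Of the 69 outside the tandem clusters 66 lie below the line, those in noncoding hosts reach 1.38 in TTR cells and 4.15 in parental cells, and the tandem copies sit around 0 on both axes.

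The other guide RNA classes also differed between the lines. Of the H/ACA RNAs 12 rose in TTR cells and for 47 of 61 the difference passed below 0, as it did for 13 of 16 Cajal body RNAs. In the protein lists the difference passed above 0 for 5 of 11, 10 of 17 and 11 of 19 genes, and below 0 for 0, 0 and 1. Quantile normalization gave 5, 9 and 6 above and 0, 2 and 1 below, where 3937 of all 18417 genes passed above and 2300 below. On the deposited scale 57.6% of genes other than box C/D RNAs in the highest class of untreated TTR level passed above 0 and 7.15% below. That class was set by arrays that this difference also uses. ZFAS1 rose in TTR cells too, by 0.71 ± 0.10 (limma adjusted p = 0.000297), less than in parental cells (difference -0.66).

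Without treatment few box C/D RNAs differed between the lines by the test. Of the 115 RNAs 0 were higher and 3 lower in TTR cells, where 3.64% of all genes were higher and 3.47% lower, so the share of lower calls was near the background. At an unadjusted p under 0.05, 1 was higher and 15 lower (13%) by limma, against 1730 higher (9.39%) and 1745 lower (9.47%) among all genes. All 15 were among the 69 outside the tandem clusters, and 0 of the 46 tandem copies passed at that level. The 3 adjusted calls were also among the 69 (4.35%). The median difference was -0.18 over the 69 outside the tandem clusters, of which 59 lay below 0, against -0.01 over all genes.

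SNORD15A, a large-subunit guide in RPS3, averaged 8.55 ± 0.11 in parental and 7.78 ± 0.19 in TTR cells (SD, n = 3 each). It was lower in every TTR array, by 0.77 ± 0.11 (difference -0.77, limma adjusted p = 0.000494). SNORD1A in SNHG16 (-0.52, limma adjusted p = 0.0181) and SNORD78 in GAS5 (-0.45, limma adjusted p = 0.0160) were the other two. SNORD1A read 4.89, 4.59 and 4.94 against 4.16, 4.19 and 4.53, and SNORD78 8.09, 7.82 and 8.09 against 7.52, 7.53 and 7.59. Both were lower without overlap but missed the threshold with some arrays left out, with 1 call remaining without the untreated parental replicate 1 or without replicate 3, and 5 calls without the untreated parental replicate 2 or the untreated TTR replicate 3.

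With TRAIL in both lines, 64 of the 115 RNAs were lower and 0 higher in TTR than in parental cells, where 26.4% of all genes were lower and 28% higher. This comparison shares the parental TRAIL arrays with the rise in parental cells and is no separate evidence of it. Outside the tandem clusters 63 of 69 were lower, with a median of -1.39. The largest differences among those with the smallest p-values were SNORD50B at -3.34, SNORD54 at -3.08, SNORD61 at -3.06, SNORD60 at -2.87 and SNORD51 at -2.71. Of the tandem copies SNORD115-40 alone passed, at -0.28 (limma adjusted p = 0.0370).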

How the data were processed

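Levels were the log2 values deposited by the authors, which per the submitters' processing notes came from RMA in Affymetrix Power Tools; its versions and settings, and the genome build, were not given in the sources used here. RMA usually gives all arrays 1 distribution of probe signals, so changes in total RNA per cell are lost. Of 33252 features 19460 named 1 gene; 1754 naming several and 12038 without a name were left out. Differences were fitted in R 4.3.3 by limma 3.58.1 (linear model with empirical Bayes moderation, all 12 arrays, 1 mean per group, no block, 8 residual degrees of freedom), adjusted by Benjamini-Hochberg over 18417 genes and called under 0.05. The fit was tested on simulated data. With 3 arrays against 3, their number limits the precision. No detection call against background was made for any feature. Members and lists were chosen with earlier results of these data known. The text names the 12 largest rises and 6 largest falls in parental cells among called RNAs without overlap (1 fall qualified), the 8 smallest p-values for the difference of responses, up to 6 for each other comparison, the 5 highest levels, RNAs with their own promoters as far as measured, their hosts and 3 genes per protein list. Other genes named beside these were picked after their values were seen. Hosts were assigned by span from the RefSeq gene table, which has no strand, so the planned strand condition was dropped. A planned search for box C in the RNAs was not run because their sequences were not used here. Start-site sequences are RefSeq's. SNORD3A and SNORD118 were not analysed here, nor were NOP56, SNU13 and MPHOSPH6. Alternatives were 2 scalings, a filter on low levels, feature means, fewer arrays, array weights, a replicate block and each array left out. Figures used matplotlib 3.10.9 in Python 3.11.15.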

Additional observations from a re-analysis of the deposited data

Results flagged for a closer look

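The TRAIL response differed between the lines by limma's test of the difference itself (TTR change minus parental change) for 22 of the named box C/D RNAs, all below 0. Many of these RNAs were named for a large parental rise or for a small p-value of this difference. The shared sign is therefore no separate evidence. The differences were -3.32 for SNORD54, -3.30 for SNORD61, -3.11 for SNORD50B, -2.92 for SNORD77, -2.57 for SNORD75, -2.40 for SNORD60, -2.34 for SNORD51 and -2.28 for SNORD12C. They were -2.14 for SNORD79, -2.07 for SNORD50A, -2.05 for SNORD43, -1.95 for SNORD14E, -1.62 for SNORD78, -1.58 for SNORD1A, -1.55 for SNORD30 and -1.46 for SNORD28. Smaller ones were -1.27 for SNORD15A, -1.16 for SNORD14C, -1.06 for SNORD74, -0.55 for SNORD33, -0.52 for SNORD57 and -0.41 for SNORD13P3.

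Among named hosts the difference was -0.66 for ZFAS1 and 0.34 for RPL3. Among the named protein genes it was above 0 throughout, at 1.55 for UTP4, 1.38 for EXOSC1, 1.35 for WDR36, 1.32 for WDR75, 1.28 for EXOSC8 and 1.12 for XRN2. It was 1.04 for ZNHIT6, 0.98 for RUVBL1 and 0.60 for RPAP3. These genes were picked by their TRAIL change in parental cells, which the difference takes away, so the sign is no separate evidence. In the whole lists it lay above 0 for 11 of 11 core and assembly, 14 of 17 processome and 17 of 19 debranching and trimming genes.

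Features that name several genes were left out of every comparison, and 32 of them name a box C/D RNA outside SNORD115 and SNORD116. Their median TRAIL change in parental cells was 1.61, from -0.14 to 3.80, and for 25 of the 32 the TRAIL arrays lay above the untreated ones (33.8% of all features did). In TTR cells their median change was 0.36, with 19 of the 32 above, against 13% of all features. The 17 features with SNORD115 or SNORD116 copies had a median of 0.00 in parental cells, with 3 above.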

How the results depend on the processing

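Over all 115 box C/D RNAs together, the counts and medians kept their direction under every alternative run. With centred arrays the medians of the 46 tandem copies turned from 0.04 to -0.25 for TRAIL in parental cells, from -0.10 to 0.11 between lines with TRAIL and from -0.08 to 0.11 for the difference of responses. The median TRAIL change in parental cells moved to 1.65 without the third of genes lowest in level and 1.49 without the tandem clusters, the TTR against parental difference with TRAIL to -1.48 and -1.39, and the difference of responses to -1.29 and -1.19. Level classes were also set by all 12 arrays, in place of the untreated TTR arrays chosen after seeing the data. With these classes 45 of 45 RNAs rose in parental cells in the highest class and 15 of 17 in the middle one. In the lowest class 6 of 53 rose and 1 fell. Of other genes 17.8% rose and 62.9% fell in the highest class. Those shares were 45.2% and 24.5% in the middle class and 23% and 2.91% in the lowest. The count lower in untreated TTR cells, 3, became 9 with array weights. Leaving out each array in turn gave 64 to 68 calls and medians of 0.68 to 0.79 for TRAIL in parental cells, 18 to 24 and 0.02 to 0.20 in TTR cells, 1 to 5 and -0.16 to -0.04 between untreated lines, 61 to 67 and -0.78 to -0.63 between lines with TRAIL, and 54 to 63 and -0.64 to -0.46 for the difference of responses. Same-numbered arrays share a code in their labels whose meaning is not given, but their deviations from group means correlated by only 0.04 to 0.08 in the parental TRAIL comparison, 0.07 to 0.25 for TRAIL in TTR cells, -0.03 to 0.23 between untreated lines and 0.02 to 0.12 between lines with TRAIL. In both TRAIL comparisons each number exceeded its highest other pairing, but no comparison had every pair over 0.1, so the numbers were not taken as pairs. With the replicate block the untreated count was 5 (all arrays) or 6 (groups compared only), and the counts for TRAIL were 67 or 66 in parental and 26 or 29 in TTR cells. Among hosts, EEF1B2 in parental cells turned to -0.063 with centred arrays and passed with quantile normalization (0.50, limma adjusted p = 0.00343), while KIF9 lay between -0.137 and 0.0575 with single arrays left out; the cause was not tested. Of the values for named RNAs, hosts and proteins under alternatives 809 kept direction and call, 21 lost the call, 2 gained it and 5 turned sign. Low signals limit the tandem copies.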
